A study of Arabidopsis thaliana with 20 samples.

Results

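The nuclear photosystem and light-harvesting genes described here were the 42 Arabidopsis thaliana loci that encode antenna proteins of photosystem II (LHCB) and photosystem I (LHCA) and nuclear subunits of both photosystems (PSA and PSB). They were chosen by gene family, not by any measured value, and made up 42 of the 27444 nuclear protein-coding genes of the annotation. For each gene the peak with the highest fold enrichment among those whose summit lay within 2 kb of the transcription start site (TSS) was taken, in each of 12 peak lists of ChIP-seq, the sequencing of chromatin fragments pulled down with a protein. Its strength is given as a percentile rank, the position of its fold enrichment among all nuclear peaks of that list, where 100 is the strongest. Its place is given as a summit offset in bp from the TSS, negative upstream and positive downstream.

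The lists came from seedlings aged 14 days grown under short days, immunoprecipitated with an antibody against GFP, and fell into 6 groups of 2 replicates. BCL7A-GFP was driven by its own promoter in the bcl7a mutant, BCL7B-GFP by its own promoter in bcl7b, and BRM-GFP by its own promoter in brm-1, so that every plant lacked the untagged copy of the tagged protein and none was wild type. In the groups called BCL7A brm-1 and BCL7B brm-1 the loss-of-function allele brm-1 was added to those lines, and in BRM bcl7ab the bcl7a and bcl7b mutations were added to the BRM line. The labels give a growth light period of 14 h, whereas the design text gives 10 h, and the short-day label fits the latter. Each line was a transgenic line, whole seedlings were used, and the labels do not say whether replicates were separate batches of seedlings beyond their number, so that p-values measure the spread between these libraries.

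BRM is an ATPase subunit of SWI/SNF chromatin remodelling complexes, which slide or evict nucleosomes, and BCL7A and BCL7B are small accessory proteins of these complexes. Photosystem II and photosystem I are the light-driven reaction centres of the thylakoid membrane in the chloroplast, and LHCB and LHCA proteins carry the chlorophyll that feeds them with excitation energy. Their nuclear genes are among the most highly expressed of green tissue and are switched on by light, through photoreceptors, the circadian clock and factors such as HY5 and the GLK proteins.

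The 12 lists held 14770 to 18870 nuclear peaks, with a genome background of 15.7 to 30.9 fragments per position. Per list 15092 to 18968 protein-coding genes had a summit within 2 kb. The BRM lists had been made with a looser limit (lowest -log10 q of 0.475 to 0.577, against 2.03 to 2.25) and wider peaks (median 799 to 841 bp, against 519 to 542 bp) than the BCL7A and BCL7B lists, so that in any comparison of BRM with BCL7A or BCL7B the protein and the making of the list cannot be told apart. The BCL7B brm-1 lists had fewer peaks than the BCL7B lists (14922 and 15300, against 17429 and 17711) and a lower median fold enrichment (2.80 and 2.78, against 3.38 and 3.39), with a higher background (21.9 and 23.5 fragments, against 15.7 and 17.3). The BCL7A brm-1 lists also had a higher background than the BCL7A lists (23.8 and 23.1 fragments, against 20.3 and 20.3). Their median fold enrichment was slightly lower (2.97 and 3.02, against 3.09 and 3.12), but they had more peaks (18837 and 18870, against 18254 and 18100). The part of these differences in the results for BCL7A and BCL7B was not tested.

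Nearly all photosystem genes lay near a BCL7A and a BCL7B peak. A summit was found in both replicates at 40 of 42 genes for BCL7A, where 63.6% of all protein-coding genes had one, and at 40 of 42 for BCL7B, against 61.1% of all. In brm-1 the number was 35 for BCL7A, against 65.8% of all genes, and 32 for BCL7B, against 55.3%. BRM had a summit in both replicates at 32 of 42 genes, against 52.6% of all, and at 33 in bcl7ab, against 50.2%. Over single libraries the number was 40 and 41 for BCL7A, 36 and 36 in brm-1, 40 and 41 for BCL7B, 35 and 34 in brm-1, 33 and 36 for BRM and 35 and 39 in bcl7ab. The share of genes with a peak was thus above that of all genes in every group, and for BCL7A it was lower in brm-1 while that of all genes was higher.

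The peaks of these genes were of middling or lower strength. The median rank of the genes with a summit in both replicates was 57.6 for BCL7A, against 61.8 for all such genes, and 61.6 for BCL7B, against 61.1. In brm-1 it was 44.8 for BCL7A, against 61.2, and 45.6 for BCL7B, against 60.4. For BRM it was 47.0, against 59.2, and in bcl7ab 46.9, against 59.0. The heat map of ranks shows the spread behind these medians, which ran in the BCL7A libraries from a mean rank of 6.09 to one of 86.4. The size of the fall of the BCL7A median in brm-1 depended on how summits were assigned. With only the nearest protein-coding TSS the medians were 45.9 and 44.4 in brm-1. With a window of 500 bp they were 44.9 and 33.9.

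**Figure D1:**
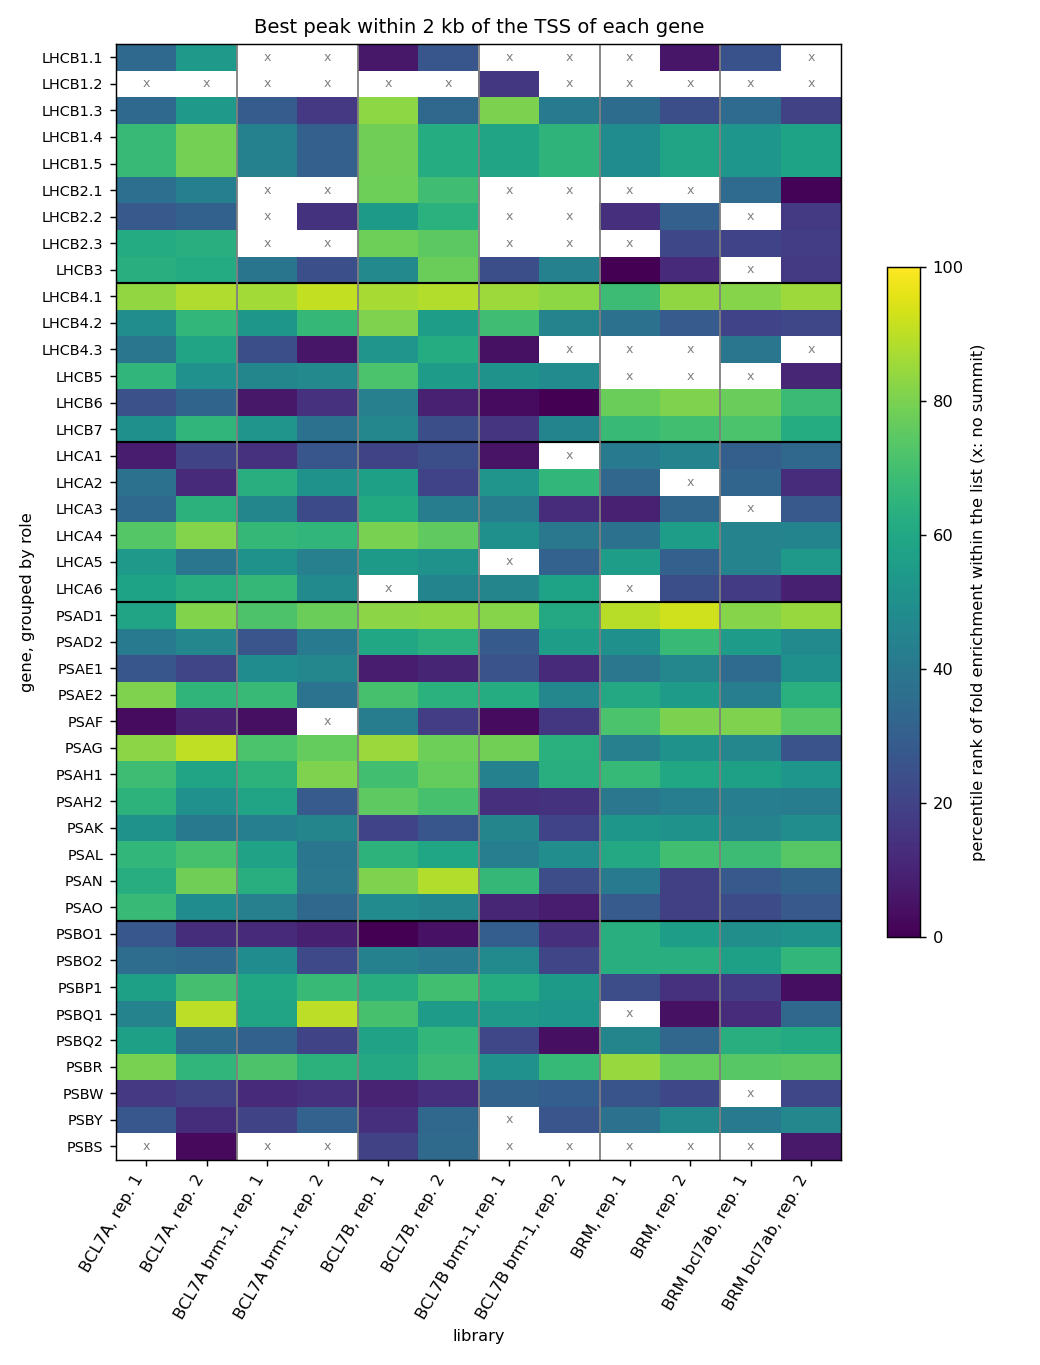
Percentile rank (colour, 0 to 100) of the best peak within 2 kb of the TSS for the 42 genes (rows, grouped by role with black lines) in the 12 libraries (columns, 2 replicates per group). White cells marked x have no summit within 2 kb. LHCB2.1 and LHCB2.3 are white in all 4 brm-1 libraries, and LHCB4.1 ranks above 68 in all 12.

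LHCB1 and LHCB2 encode the proteins of the major trimeric antenna LHCII, the most abundant membrane protein of the chloroplast, and LHCB3 another protein of these trimers. Of these 9 genes, 8 had a BCL7A summit and 8 a BCL7B summit in both replicates, but 5 had a BRM summit in both. In brm-1, 3 of the 8 genes had a BCL7A summit in neither library, and 4 of the 8 had a BCL7B summit in neither. The 3 include LHCB1.1, whose BCL7A summits belonged to the peak at its neighbour LHCB1.3. In the other 4 role groups together no gene was without a BCL7A summit in both brm-1 libraries that had it in both BCL7A libraries, and 1 gene, PSBS, was so for BCL7B.

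The 3 LHCB2 genes carried this pattern most clearly. LHCB2.1 (AT2G05100, chr2:1822990-1824480, minus strand) had ranks of 36.4 and 43.3 in the BCL7A libraries and 77.9 and 69.4 in the BCL7B libraries, with summits from 59 bp upstream to 61 bp downstream of the TSS. It had no summit within 2 kb in any of the 4 brm-1 libraries. LHCB2.3 (AT3G27690, chr3:10255906-10257489, plus strand) had ranks of 61.4 and 63.0 for BCL7A and 78.1 and 74.9 for BCL7B, at 64 to 111 bp upstream. It too had none in any of the 4 brm-1 libraries. LHCB2.2 (AT2G05070, chr2:1799234-1800472, minus strand) had ranks of 27.8 and 31.1 for BCL7A and 54.4 and 63.9 for BCL7B, at 10 to 88 bp upstream. In brm-1 it kept a BCL7A peak in replicate 2 at rank 14.8 and no BCL7B peak. The summit pileups of the 3 genes, the number of fragments over the summit, were 54 to 74 in the BCL7A libraries and 58 to 80 in the BCL7B libraries. The median over all nuclear peaks was 82 and 83 in the BCL7A lists and 72 and 79 in the BCL7B lists. In the brm-1 lists the lowest pileup of a photosystem gene with a summit was 59 and 53 for BCL7A and 49 and 46 for BCL7B.

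BRM itself had weak or no peaks at the LHCB2 genes. LHCB2.1 had no BRM summit in either BRM library but had them in both bcl7ab libraries, at ranks 35.0 and 0.849. LHCB2.2 had BRM ranks of 13.9 and 30.7, and in bcl7ab a summit in replicate 2 at 17.1. LHCB2.3 had a BRM rank of 21.5 in replicate 2 alone, and 20.1 and 18.2 in bcl7ab. In the BRM line the peaks at the 3 genes thus ranked at 30.7 or lower where present, below every BCL7B rank of these genes. For BCL7A, LHCB2.1 and LHCB2.2 also ranked below the median of all genes. LHCB3 had the lowest mean BRM rank of the 32 genes with a BRM summit in both replicates, at 0.0993 and 12.2, while it ranked at 63.0 and 61.6 for BCL7A and 46.9 and 77.7 for BCL7B.

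The sequence upstream of the TSS is given for the LHCB2 genes, since most summits that were present in the BCL7A and BCL7B lines and missing in brm-1 lay just upstream of the TSS. Bases are from the RefSeq TAIR10.1 assembly, 5′ to 3′ on the strand of the gene and ending just before the TSS, at chr2:1824481-1824730 (minus strand), chr2:1800473-1800722 (minus strand) and chr3:10255656-10255905 (plus strand). Capitals mark matches on either strand to a G-box (CACGTG), an I-box (GATAAG), the CCA1-binding motif (AAAATCT), a GLK-associated motif (CCAATC) or a TATA box (TATAAA).
LHCB2.1: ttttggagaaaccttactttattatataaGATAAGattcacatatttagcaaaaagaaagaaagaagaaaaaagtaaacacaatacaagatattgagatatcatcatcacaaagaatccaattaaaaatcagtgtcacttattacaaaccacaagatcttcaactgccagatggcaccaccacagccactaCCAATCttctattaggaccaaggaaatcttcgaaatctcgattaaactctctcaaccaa
LHCB2.2: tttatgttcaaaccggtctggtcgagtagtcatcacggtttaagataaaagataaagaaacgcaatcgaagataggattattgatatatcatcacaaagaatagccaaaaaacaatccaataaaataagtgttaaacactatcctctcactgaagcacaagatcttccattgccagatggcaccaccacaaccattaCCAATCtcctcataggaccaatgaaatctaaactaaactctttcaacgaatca
LHCB2.3: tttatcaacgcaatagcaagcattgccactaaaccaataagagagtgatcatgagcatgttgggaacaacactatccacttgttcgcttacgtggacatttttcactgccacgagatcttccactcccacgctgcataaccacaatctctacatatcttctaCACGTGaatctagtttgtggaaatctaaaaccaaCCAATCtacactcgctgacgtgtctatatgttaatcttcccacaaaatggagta
In all 3 a GLK-associated motif starts 53 to 59 bases before the TSS, LHCB2.3 also holds a G-box and LHCB2.1 an I-box.

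Among all genes, those without a peak in brm-1 had mostly weak peaks in the reference line, and the LHCB2 peaks of BCL7B were not among the weak. Of the 17450 genes with a BCL7A summit in both replicates, 1.56% had it in neither brm-1 library, with a median BCL7A rank of 21.7. Of the 16771 with a BCL7B summit, 7.21% had it in neither, with a median BCL7B rank of 27.6. Among genes with a mean BCL7B rank of at least 50, a limit set after seeing these ranks, 2.11% of all genes and 3 of 26 photosystem genes, the 3 LHCB2 genes, had no BCL7B peak in brm-1. For BCL7A the figures were 0.242% of all genes and 1 of 21, LHCB2.3. Counted over all ranks, 3 of 40 photosystem genes had no BCL7A summit within 2 kb in either brm-1 library, and 5 of 40 no BCL7B summit. The 3 include LHCB1.1, whose BCL7A summits belonged to the LHCB1.3 peak, as described next.

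The LHCB1 genes lie close together, and their peaks were partly shared. LHCB1.1 (CAB2), LHCB1.2 (CAB3) and LHCB1.3 (CAB1) are neighbours on chromosome 1. LHCB1.1 had BCL7A ranks of 34.3 and 54.2, but those summits lay upstream at -1876 and -1962 bp and belonged to the peak at LHCB1.3, where they lay 40 bp upstream and 46 bp downstream of its TSS. In BCL7A brm-1 the LHCB1.3 summits lay 272 and 263 bp downstream, out of the 2 kb window of LHCB1.1, so that the missing BCL7A summit at LHCB1.1 was a change of position at its neighbour. For BCL7B, LHCB1.1 had summits of its own, 115 and 130 bp upstream, at ranks 6.39 and 26.8, and none in brm-1. For BRM it had a rank of 6.20 in replicate 2 alone, and in bcl7ab 25.2 in replicate 1 alone.

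LHCB1.2 was the gene with the fewest peaks. It had a summit in 1 of 12 libraries, BCL7B brm-1 replicate 1, at rank 16.2 and 688 bp downstream of the TSS. LHCB1.4 and LHCB1.5, divergent genes on chromosome 2 with TSSs 1039 bp apart, shared their best peak in all 12 libraries, nearer in each to the TSS of LHCB1.5. Its rank was 67.5 and 79.0 for BCL7A and 44.1 and 30.6 in brm-1, 78.5 and 62.0 for BCL7B and 58.6 and 65.0 in brm-1, and 48.6 and 58.5 for BRM and 52.7 and 58.1 in bcl7ab. LHCB1.4 and LHCB1.5 are therefore a single measurement here, in which the BCL7A libraries lay above both brm-1 libraries and the BCL7B libraries overlapped theirs.

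Reads that map to several places had been discarded by the authors, which matters for copies as alike as the LHCB1 and LHCB2 genes. Within 500 bp of the TSS, every sequence of 150 bases, the read length, occurred once in the genome at all 42 genes, and at 96.9% of all protein-coding genes. At the LHCB1 and LHCB2 genes this held within 500 bp of the TSS, and sequence further out in the 2 kb window was not examined.

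The minor antenna proteins CP29 (LHCB4), CP26 (LHCB5) and CP24 (LHCB6) link the trimers to the photosystem II core. All 6 genes of this group, LHCB7 included, had BCL7A and BCL7B summits in both replicates. LHCB4.1 was among the highest ranks for both proteins, at 83.9 and 87.9 for BCL7A, 87.1 and 88.6 for BCL7B, 86.1 and 90.8 in BCL7A brm-1 and 85.4 and 83.0 in BCL7B brm-1. These summits lay 1732 to 1795 bp downstream of the TSS, past the annotated end of the gene. LHCB4.3 and LHCB5 had no BRM summit in either BRM library. LHCB4.3 ranked at 39.2 and 58.3 for BCL7A and 52.3 and 61.9 for BCL7B, and at 23.9 and 5.99 in BCL7A brm-1 and 4.59 in a single BCL7B brm-1 library. LHCB5 ranked at 65.8 and 50.6 for BCL7A and 71.8 and 54.9 for BCL7B. For each protein both brm-1 libraries lay below its own reference libraries, the 4 together at 45.8 to 51.6, without a call. LHCB6 was the reverse in the proteins, with BRM ranks of 77.4 and 80.8, BCL7A ranks of 24.7 and 32.2 and BCL7B ranks of 43.6 and 9.14. Another TSS was nearer to the best summit of LHCB4.3 in 6 of the 8 libraries that had one. For LHCB5 this held in 5 of 9 libraries, and for LHCB6 in 5 of 12.

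LHCA genes encode the antenna belt of photosystem I. All 6 had a BCL7A summit in both replicates, 5 a BCL7B summit and 4 a BRM summit. LHCA4 ranked highest, at 73.8 and 81.5 for BCL7A and 79.8 and 75.7 for BCL7B, and lower in every brm-1 library, at 66.7 and 65.8 for BCL7A and 50.3 and 40.1 for BCL7B. LHCA1 was among the lowest for BCL7A, at 8.08 and 20.7. LHCA3 was among the lowest for BRM, at 9.13 and 33.0.

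Among the PSA genes, PSAD encodes the docking site of ferredoxin, PSAF takes part in the binding of plastocyanin, and PSAH, PSAL and PSAO the side of photosystem I where LHCII docks. All 12 genes had a BCL7A, a BCL7B and a BRM summit in both replicates. PSAD1 had the highest BRM ranks of all 42 genes, 89.4 and 92.8, and 58.5 and 81.2 for BCL7A and 82.7 and 83.3 for BCL7B. PSAG, which stabilises antenna binding, had the highest for BCL7A, 82.4 and 90.4. The best summit was nearer to another TSS in 6 libraries at PSAD1 and in 3 at PSAG. PSAN, a lumenal subunit, ranked at 80.7 and 88.6 for BCL7B, among the highest. PSAF had the lowest BCL7A ranks, 3.02 and 9.16, with BCL7B ranks of 41.8 and 18.1 and BRM ranks of 71.8 and 80.3. PSAE1 was among the lowest for BCL7B, at 7.78 and 10.3.

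The 9 PSB genes encode the oxygen-evolving proteins (PSBO, PSBP and PSBQ), small subunits of photosystem II (PSBR, PSBW and PSBY) and PSBS, the sensor of energy-dependent quenching. PSBO1, the main form of the manganese-stabilising protein, had the lowest BCL7B ranks of all, 0.215 and 4.83, while it had BRM ranks of 62.8 and 55.9. PSBW was among the lowest for both BCL7 proteins, at 16.6 and 19.4 for BCL7A and 9.83 and 14.1 for BCL7B. PSBP1 was among the lowest for BRM, at 23.8 and 14.4, and PSBR among the highest, at 84.5 and 76.5. In 9 of 12 libraries the best summit of PSBR was nearer to another TSS. PSBS had a summit in 4 of 12 libraries, at rank 2.40 in BCL7A replicate 2, 19.3 and 34.4 in BCL7B and 6.99 in BRM bcl7ab replicate 2, each 1376 to 1559 bp downstream of the TSS. It had none in BRM or in any brm-1 library.

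The brm-1 contrasts ask how the rank of a BCL7A or BCL7B peak differed where BRM was missing. They were fitted with limma over all protein-coding genes with a summit in all 4 libraries, so that genes without a peak in some library, the LHCB2 genes included, were not tested. An exact permutation test of 2 against 2 libraries for a single gene cannot go below a p of 1 in 3 and was not used for calls.

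For BCL7A, 35 of the 42 genes were tested and 0 were called, where 0% of all 16573 genes tested were called (limma, adjusted p under 0.05). At an unadjusted p under 0.05, 6 photosystem genes were lower and 2 higher in brm-1, against 1147 lower and 1284 higher among all. The median difference was -10.1 percentile points over the photosystem genes and 0.33 over all genes tested. Without BCL7A brm-1 replicate 2 it was -5.84 over the photosystem genes. The 2 brm-1 ranks lay below both BCL7A ranks at 15 of 35 genes, against 22.1% of all genes tested, and above both at 2, LHCA2 and PSAE1, against 24.6%. With the summit pileup over the genome background in place of the rank, limma called 5 of them lower, against 3.34% of all genes, and 0 higher. LHCB1.4 and LHCB1.5 are the same peak, and with it counted once 5 genes were lower at the unadjusted p and 14 of 34 lay below.

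For BCL7B, 31 of the 42 genes were tested, and 3 were lower in brm-1, where 8.00% of all 14154 genes tested were called lower, while 0 were higher, against 4.15% of all. The 3 were PSAH2, PSBQ2 and PSAO. The share called lower was close to that of all genes. The median difference was -11.2 percentile points, against -1.76 over all genes tested, and -7.18 over the photosystem genes without BCL7B replicate 1. Both brm-1 ranks lay below both BCL7B ranks at 18 of 31 genes, against 35.1% of all, and above at 3, PSAE1, PSBO1 and PSBW, against 26.1%.

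PSAH2 (AT1G52230, chr1:19454798-19455668, plus strand) ranked at 75.1 and 70.8 in the BCL7B libraries and at 13.9 and 14.7 in brm-1. The groups did not overlap, and the difference was -58.6 percentile points (SE 10.1, limma adjusted p = 0.0247). Its BCL7A ranks were 64.6 and 50.6, and 58.3 and 28.6 in brm-1, which overlapped. PSAH2 shares its promoter with a gene whose TSS lies 33 bp away, and in 2 libraries its best summit was nearer to that TSS. Its BRM ranks were 39.6 and 42.7, and 43.0 and 42.1 in bcl7ab.

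PSBQ2 (AT4G05180, chr4:2671523-2673243, minus strand) ranked at 57.8 and 66.3 for BCL7B and at 21.4 and 4.11 in brm-1. The difference was -49.3 points (SE 10.7, limma adjusted p = 0.0277). The BCL7A ranks were 57.0 and 35.2, and 31.0 and 20.5 in brm-1, without a call. Its BRM ranks of 45.4 and 33.0 lay below both bcl7ab ranks, 62.5 and 61.1, also without a call.

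PSAO (AT1G08380, chr1:2640803-2641934, minus strand) ranked at 48.2 and 45.7 for BCL7B and at 10.8 and 7.49 in brm-1. The difference was -37.8 points (SE 9.21, limma adjusted p = 0.0338). For BCL7A it ranked at 67.3 and 48.6, and at 43.5 and 33.9 in brm-1. Another TSS lies 138 bp away, and in 7 libraries the best summit was nearer to that TSS. The BRM ranks were 28.5 and 19.1, and 22.7 and 27.8 in bcl7ab.

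The upstream sequence of the 3 called genes is shown as far as the next annotated gene, with capitals for the same motifs, at chr4:2673244-2673493 (minus strand), chr1:2641935-2642071 (minus strand) and chr1:19454766-19454797 (plus strand) of TAIR10.1.
PSBQ2: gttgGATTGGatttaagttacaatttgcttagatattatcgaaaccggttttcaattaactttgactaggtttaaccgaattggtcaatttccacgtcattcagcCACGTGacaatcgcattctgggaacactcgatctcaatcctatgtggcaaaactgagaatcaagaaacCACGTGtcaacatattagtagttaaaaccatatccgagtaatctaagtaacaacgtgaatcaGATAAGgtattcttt
PSAO: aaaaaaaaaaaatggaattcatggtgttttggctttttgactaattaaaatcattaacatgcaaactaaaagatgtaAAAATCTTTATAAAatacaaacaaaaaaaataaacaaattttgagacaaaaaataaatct
PSAH2: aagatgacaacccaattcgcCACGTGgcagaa
PSBQ2 holds G-boxes starting 145 and 77 bases before the TSS, PSAH2 holds a G-box 12 bases before it, and the capitals in PSAO are a CCA1-binding motif followed by overlapping TATA box matches on both strands.

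All 3 calls were lost when BCL7B replicate 1 or replicate 2 was left out or when limma was run without a variance trend, and 0 photosystem genes were then called. The adjusted p of the 3 genes then lay between 0.0564 and 0.133 (limma). PSAO was also not called when either brm-1 library was left out, on the log2 fold enrichment (limma adjusted p = 0.129) or on the log2 pileup (limma adjusted p = 0.322). PSBQ2 was not called without brm-1 replicate 2 or on the log2 pileup (limma adjusted p = 0.0534). On the log2 pileup 7 photosystem genes were called lower, PSAH2 alone of the 3 among them, against 24.1% of all genes. Of all genes, 328 and 392 were called without BCL7B replicate 1 and replicate 2, and 0 without the trend.

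**Figure D2:**
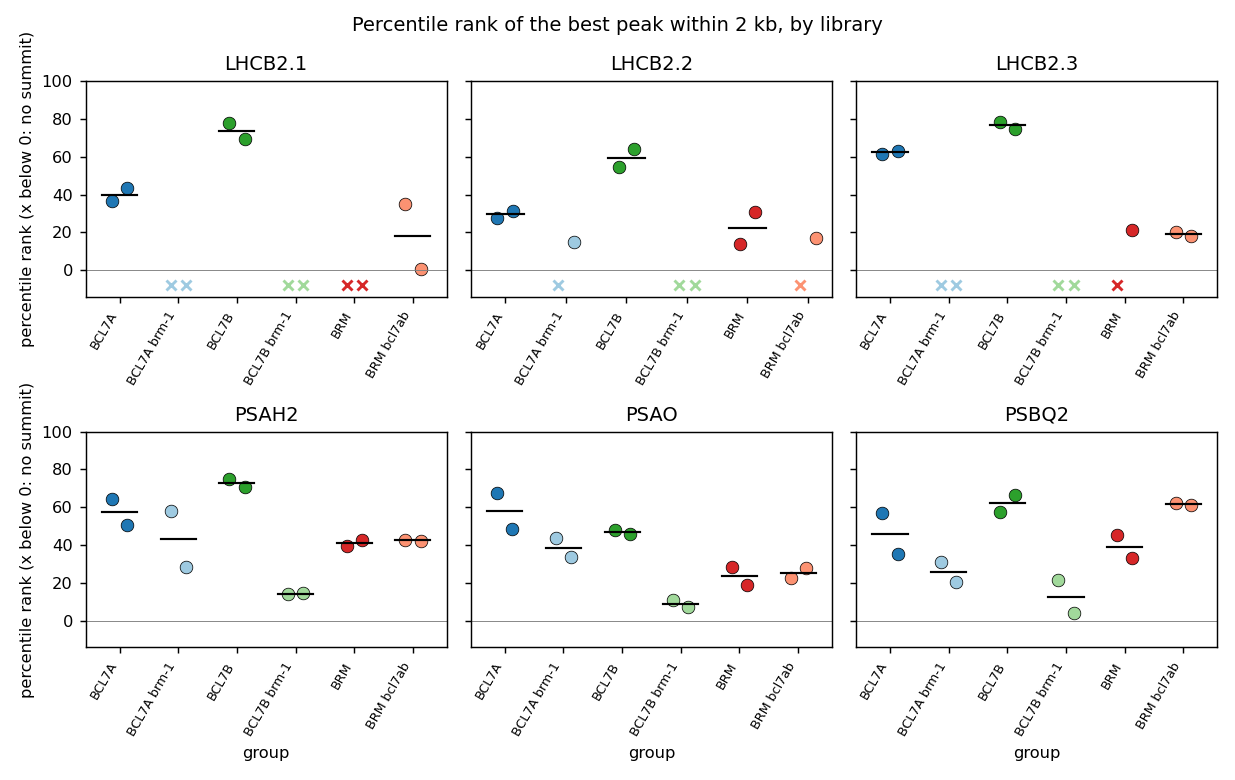
Percentile rank by library for the 3 LHCB2 genes and the 3 genes called lower for BCL7B in brm-1 (x axis: group, 2 points per group, bars: mean where both libraries have a summit, crosses below 0: no summit within 2 kb). The 3 LHCB2 genes have 1 point in their 12 brm-1 positions, LHCB2.2 at 14.8, and PSAH2 falls from 75.1 and 70.8 to 13.9 and 14.7 for BCL7B.

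The difference between the brm-1 effects of BCL7B and BCL7A was tested at 30 of the 42 genes, and 0 were called, where 0.268% of all 13811 genes were called (limma). At an unadjusted p under 0.05, 1 was lower, PSAH2, and 2 were higher, PSBO1 and PSBW, against 1668 lower and 663 higher of all. In the plot of both brm-1 differences PSAH2, PSAN and PSAO of photosystem I and PSBQ2 of photosystem II lie low on the BCL7B axis. LHCB1.4 and LHCB1.5, as the shared peak, lie lowest on the BCL7A axis.

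**Figure D3:**
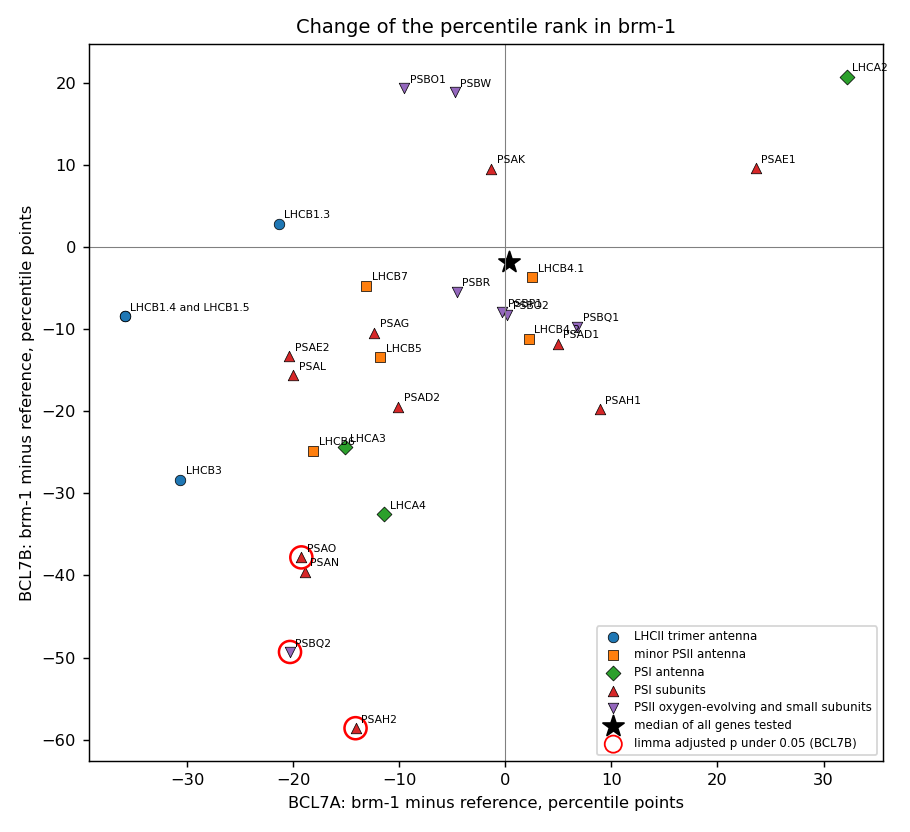
Difference in mean percentile rank, brm-1 minus reference, for BCL7A (x axis) and BCL7B (y axis) at the 30 genes with a summit in all 8 libraries, by role (symbols), with red rings for the 3 genes called for BCL7B and a star for the median of all genes tested. Most genes lie left of and below 0, and PSAH2 lies at -58.6 on the y axis.

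The 2 BCL7 proteins were compared at 39 genes, and 0 were called, where 0% of all 16038 genes were called (limma). At an unadjusted p under 0.05, 3 genes were higher and 3 lower for BCL7B, against 701 higher and 1235 lower of all. LHCB2.1 and LHCB2.2 were among the higher, by 33.8 and 29.7 points, and LHCB1.1 and PSBO1 among the lower, by -27.6 and -17.5 points. The value of LHCB1.1 sets its own BCL7B peak against the BCL7A peak of LHCB1.3. Both BCL7B ranks lay below both BCL7A ranks at 8 of 39 genes, against 26.5% of all, and above at 11, against 17.9%.

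BRM summits lay further downstream than BCL7 summits at these genes. The median offset of the genes with a summit in both replicates was -33.5 bp for BCL7A, -19.0 bp for BCL7B and 273 bp for BRM, against -48 bp, -42 bp and 130 bp over all such genes. Within 200 bp of the TSS lay 54.3% of the best summits for BCL7A, 61.7% for BCL7B and 14.5% for BRM, against 48.8%, 48.2% and 25.8% for all genes. Both BRM summits lay downstream of both BCL7A summits at 23 of 32 genes, where this held for 49.7% of all genes, and downstream of both BCL7B summits at 22 of 32, against 48.7%. LHCB1.4, PSAG and PSBR went the other way for both proteins, 3 of 32 genes against 24.0% of all genes for BCL7A and 23.7% for BCL7B. At PSAG and PSBR the best summit was nearer to another TSS in 3 and 9 libraries. LHCB1.4 and LHCB1.5 share their peak in opposite orientation, so that it counts once in each direction for each protein. Among the minor antenna genes of photosystem II both BRM summits lay downstream of both BCL7B summits at 1 of 4, LHCB4.2, and the median difference was -123 bp. Against BCL7A this held at 2 of 4, with a median difference of 107 bp. Both BRM summits lay upstream of both BCL7A or both BCL7B summits at 0 of these 4 genes.

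Examples come from photosystem I. PSAK, a subunit at the antenna edge of photosystem I, had summits at -72 and 4 bp for BCL7A, -19 and -36 bp for BCL7B and 645 and 373 bp for BRM. PSAN had them at -13 and -11 bp, -17 and -13 bp, and 315 and 351 bp. LHCA4 had them at -197 and -55 bp, -58 and -122 bp, and 339 and 285 bp. In each of these 3 genes, chosen after their values were seen, BRM lay inside the gene and BCL7A and BCL7B at or before the TSS. The wider peaks of the BRM lists go with this difference, and their part in it was not tested.

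**Figure D4:**
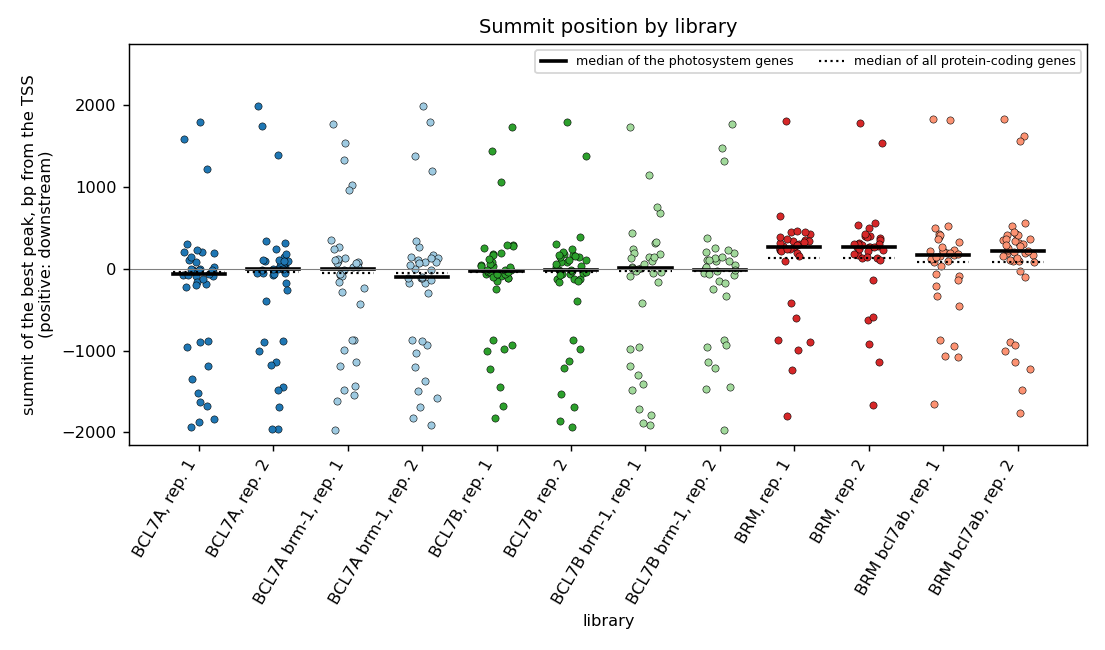
Summit offset in bp from the TSS (y axis, positive downstream) of the best peak of each photosystem gene (points) in the 12 libraries (x axis), with the median of these genes (solid bar) and of all protein-coding genes (dotted bar). The solid bars of the BRM libraries lie at 270 bp, above the dotted bars at 138 bp, and those of the bcl7ab libraries at 171 and 224 bp.

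The bcl7ab contrast asks how BRM peaks differed without BCL7A and BCL7B. Of the 32 genes with a BRM summit in both replicates, 0 had none in both bcl7ab libraries, against 4.00% of all 14441 such genes, and LHCB2.1 was new in both. Without bcl7ab replicate 2 the number was 4, which were the genes whose bcl7ab summit was in that library alone, LHCB2.2, LHCB3, LHCA3 and PSBW. Of 28 genes tested, 0 were called, where 0.557% of all 12557 genes were called (limma), and at an unadjusted p under 0.05 PSAD1 was lower (-7.90 points) and PSBQ2 higher (22.6 points), against 1546 lower and 943 higher of all. Without bcl7ab replicate 2, 1 photosystem gene was called lower. The median difference was -1.86 points, against -1.19 over all, and -4.70 without BRM replicate 2. Both bcl7ab ranks lay below both BRM ranks at 8 of 28 genes, against 30.9% of all, and above at 1, PSBQ2, against 20.8%. The summit offset was lower in both bcl7ab libraries than in both BRM libraries at 10 of 28 genes, against 23.4% of all genes, with a median change of -36.8 bp, against -11.5 bp.

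PSAK and PSAN were among those 10. PSAK summits lay at 645 and 373 bp for BRM and at 234 and 224 bp in bcl7ab. PSAN summits lay at 315 and 351 bp for BRM and at -58 and -27 bp in bcl7ab. Of the other genes, PSAF, LHCB1.3, LHCB1.4 and LHCB4.1 had summits further downstream in both bcl7ab libraries, 4 of 28 against 15.0% of all genes.

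Other nuclear genes of photosynthesis were taken from 5 lists of 68 genes in all, as counts. For BCL7A in brm-1, 0 genes of the 5 lists were called, and in none of the 5 was a gene without a summit in both brm-1 libraries that had it in both BCL7A libraries. For BCL7B in brm-1, limma called 1 of 12 tested genes of linear electron flow and the ATP synthase lower, 2 of 10 of chlorophyll synthesis, 0 of 13 of the Calvin-Benson cycle, 4 of 7 regulators and 1 of 3 light-harvesting-like genes, where 8.00% of all genes were called lower. In the 5 lists 0 genes were called higher, against 4.15% of all genes. Those with the largest fall were GUN4, an activator of magnesium chelatase (-74.8 points, limma adjusted p = 0.0247), and CAO, chlorophyllide a oxygenase (-57.3 points, limma adjusted p = 0.0247). They were followed by the phytochrome-interacting factor PIF3 (-50.9 points, limma adjusted p = 0.0251) and ATPC1, the gamma subunit of the chloroplast ATP synthase (-49.6 points, limma adjusted p = 0.0247). HYH, a homologue of HY5 (-41.6 points, limma adjusted p = 0.0276), and OHP2, a light-harvesting-like protein (-40.0 points, limma adjusted p = 0.0497), were the next, and the regulators COP1 (-13.5 points, limma adjusted p = 0.0247) and HY5 (-12.2 points, limma adjusted p = 0.0331) the last. Of these 8 genes, 2 were still called without BCL7B replicate 1, 1 without BCL7B replicate 2, 6 without brm-1 replicate 2 and 0 without a variance trend. In the BCL7B contrast 2 of 14 genes of chlorophyll synthesis, 2 of 18 of the Calvin-Benson cycle and 1 of 10 regulators had a summit in both BCL7B libraries and in neither brm-1 library, against 7.21% of all genes.

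The promoters of the photosystem genes were searched over 250 bases before the TSS, on both strands, for the motifs given above. Here and for all promoters the full length was searched, also where another annotated gene lay nearer to the TSS. Some matches therefore lie beyond the sequence free of other genes, as the CCA1-binding motif 116 bases before the TSS of LHCB5, where 47 bases are free. The G-box was in 9 of 42 promoters (21.4%), against 6.49% of all promoters. The GLK-associated motif was in 11 (26.2%, against 10.2%), the I-box in 9 (21.4%, against 12.3%) and the CCA1-binding motif in 12 (28.6%, against 16.5%). The TATA box was in 18 (42.9%, against 47.4%). These matches are a description of the letters and not of a bound factor.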

How the data were processed

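Peak lists of 12 ChIP-seq libraries were used, and the other 8 of the 20 samples were not analysed here. The authors mapped reads to TAIR10 with Bowtie 2, discarded those with mismatches or several positions and ran MACS2 separately for every library. The deposited narrow peak lists give, per peak, a fold enrichment (a ratio of summit pileup to background), -log10 values of p and q, and a score, which was not used. Further unlabelled columns of 8 lists were not used. The MACS2 version in the submitters' processing notes is 2.1.1. Whether an input library entered the calling was not given in the sources used here, and fragments were recovered from the fold and -log10 p, with a whole-number pileup fitting 99.8% to 99.9% of nuclear peaks (tolerance 0.01). Depth decides which weak peaks a list holds, so a missing peak is not missing binding.

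TSSs were taken from the RefSeq TAIR10.1 annotation, whose 5 nuclear chromosomes have the coordinates of TAIR10, and 41 of the 42 loci had a symbol. Another protein-coding TSS lay within 2 kb at 23 of them. Per library, 24 to 35 of them had a best summit nearest to their own TSS. Percentile ranks were compared with limma 3.58.1 (R 4.3.3, variance trend, Benjamini-Hochberg over all genes tested, adjusted p under 0.05, two-sided), checked on simulated data. Those data had the same noise at every gene and shifts larger than those of the 3 called photosystem genes. The check therefore does not bear on calls of that size. Per-library values are given for genes called by limma, for the 3 highest and 3 lowest mean ranks of BCL7A, BCL7B and BRM, and for genes without a summit in both libraries of any group. The genes and the lists were chosen with earlier results of these data known. Alternatives were windows of 1 kb and 500 bp, the nearest TSS, stricter -log10 q, other scales of strength, a replicate block and leaving out each library.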

Additional observations from a re-analysis of the deposited data

Results flagged for a closer look

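At PSBO1 and PSBW both brm-1 libraries lay above the reference libraries for BCL7B and below them for BCL7A. The difference of the brm-1 effects was 28.9 percentile points at PSBO1 (limma adjusted p = 0.267) and 23.6 points at PSBW (limma adjusted p = 0.290), so neither passed the threshold.

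Peaks on the plastid genome, outside the nuclear comparisons, were present in the BCL7A lists (28 and 25), the BCL7A brm-1 lists (26 and 30), the BCL7B lists (27 and 27) and the BCL7B brm-1 lists (30 and 31), and absent from all 4 BRM lists. They covered 4 to 7 of the 20 plastid-encoded psa and psb genes. Whether plastid peaks had been removed from the BRM lists is not stated in the sources used here.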

How the results depend on the processing

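With a window of 1 kb the median rank was 46.3 for BCL7A, 38.0 for BCL7A brm-1, 59.2 for BCL7B and 42.2 for BCL7B brm-1. It was 43.2 for BRM and 44.3 for BRM bcl7ab. With 500 bp it was 44.9 for BCL7A, 33.9 for BCL7A brm-1, 57.1 for BCL7B, 33.9 for BCL7B brm-1 and 41.2 for BRM. With the nearest protein-coding TSS it was 45.9 for BCL7A, 44.4 for BCL7A brm-1, 59.2 for BCL7B, 42.8 for BCL7B brm-1 and 41.9 for BRM. Ranked among the best peaks of genes it was 47.2 for BCL7A, 33.9 for BCL7A brm-1, 52.4 for BCL7B and 37.5 for BCL7B brm-1. On that scale it was 40.1 for BRM and 40.8 for BRM bcl7ab. Over all genes the medians were 55.4 to 59.7 with either window or the nearest TSS. At a -log10 q of 5 or more it was 55.7 for BCL7A, 38.4 for BRM and 31.2 for BRM bcl7ab, with 21 and 20 genes left in both replicates of the latter pair, and at 2 or more it was 43.0 and 43.9 for that pair. Leaving out a replicate gave ranges of 52.5 to 54.2 for BCL7A, 38.8 to 48.7 for BCL7A brm-1, 55.5 to 60.2 for BCL7B, 44.3 to 45.5 for BCL7B brm-1, 45.4 to 47.0 for BRM and 44.8 to 44.9 for BRM bcl7ab.

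The BRM offset stayed downstream, at 284 bp (1 kb), 291.5 bp (500 bp), 306 bp (nearest TSS), 226.5 bp (-log10 q of 5), 269.5 bp (-log10 q of 2), 295.5 bp (summit nearest to the TSS) and 269.5 to 270.0 bp with a replicate left out. For BCL7B it was -1 bp with 500 bp and with the nearest summit and -0.5 bp with the nearest TSS. In brm-1 it was 31.5 bp for BCL7A with the nearest TSS, and for BCL7B 54 bp with 1 kb and 500 bp, 59.5 bp with the nearest TSS, 53.75 bp with the nearest summit, -46.5 bp at a -log10 q of 5 and -10.5 to 10.0 bp with a replicate left out.

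Genes without a peak in brm-1 numbered 3 to 4 for BCL7A and 5 to 7 for BCL7B under every window, TSS, -log10 q and left-out library tried, alternatives chosen for this count after seeing the data. For BRM in bcl7ab the number was 2 with 1 kb and 500 bp, 1 with the nearest TSS and 0 to 4 with a library left out.

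For BCL7B in brm-1 limma called 5 genes lower and 1 higher with 1 kb, 3 higher on the log2 fold enrichment and 0 without a variance trend. On the log2 pileup it called 7 lower, against 24.1% of all genes. For BCL7A in brm-1 it called 5 lower on the log2 pileup, against 3.34% of all genes. It called 3 genes higher for BCL7B than BCL7A on the log2 pileup, and 1 higher for the difference of the brm-1 effects on the log2 fold enrichment. Where no share of all genes in the same direction stands beside such a count, the count says nothing particular to the photosystem genes. Groups that do not overlap would give 15 lower and 2 higher for BCL7A (all genes 22.1% and 24.6%), 18 and 3 for BCL7B (35.1% and 26.1%), 8 and 1 for BRM (30.9% and 20.8%), and 8 and 11 for BCL7B against BCL7A (26.5% and 17.9%). The median difference was -11.6 to -5.84 points for BCL7A with a library left out, -4.70 to -1.76 for BRM, and -2.72 to 5.24 for BCL7B against BCL7A, which was 6.03 with the nearest TSS. For BRM it was -4.04 at a -log10 q of 5 and 0.0094 on both log2 scales, and for the difference of the brm-1 effects it was 0.0585 on the log2 fold enrichment and 0.0602 on the log2 pileup. Over all genes, limma called 1720 for BCL7B in brm-1 but 3807 and 6224 on those scales and 1052 with the nearest TSS. For BCL7A it called 0, but 197 and 911 on those scales and up to 159 with a library left out, and for BRM in bcl7ab 70, but 556 and 499, and 131 to 540 with a library left out. The cause of these changes was not tested.

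With the replicate number as a replicate block, limma called 4 genes lower for BCL7B in brm-1 and 2569 of all genes, and 0 photosystem genes in the other contrasts, with 435 of all genes for BRM in bcl7ab. The block changed no other call. The labels do not say that a number marks a shared batch. Deviations from the group means of same-numbered libraries were correlated at -0.00561 to 0.00784. Whether same-numbered libraries shared a batch cannot be told from these values.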
